A study of Mus musculus with 18 samples.

Results

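Between postnatal day 7 (P7) and day 21 (P21), RNA levels in the mouse cochlear nucleus were compared on oligonucleotide arrays, with 3 pools of tissue at each age. These 6 arrays are taken, by their sample titles, from the 18 samples of the series, and the comparison is described over all 22626 probe sets that are not array controls. Per the labels, the mice were C57BL/6J with no treatment named, the source was the cochlear nucleus, and each array carried total RNA pooled from 5 pups. A further 2 arrays at day 14 (P14), made in the same way, entered the model for its estimate of the spread and are given beside some values. Pooling averages over pups, and since no label says that the pools of an age came from separate litters, p-values measure the spread between these samples only.

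The cochlear nucleus is the first brain station of hearing: every auditory nerve fibre ends there, on several kinds of neuron that keep the timing and frequency content of sound apart. In mice the ear canal opens and airborne hearing begins between the ages compared, so that the younger tissue receives spontaneous nerve activity and the older tissue receives sound-driven activity. The same weeks are known for the growth of myelin, the maturation of large synaptic endings and the end of most cell division in the brainstem. In whole tissue, fewer cells of a type and less RNA per cell cannot be told apart. The array reads each transcript with a set of short oligonucleotides, a probe set, and reports 1 signal per set. The tables used here do not pair probe sets with genes, so a probe set is given by its identifier or its rank, and genes are named only where the identifier itself carries a transcript's name. Markers of the tissue, and of cell types that a dissection could add, could not be looked up for the same reason, and their part in the changes below was not tested.

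Among the transcripts that can be named, pyruvate carboxylase, the transferrin receptor and GAPDH were called higher at P21 in some, not all, probe sets. Beta-actin was not called. The probe sets of these transcripts belong to the array's controls and stand for a transcript's 3', middle or 5' part. Pyruvate carboxylase is the mitochondrial enzyme that makes oxaloacetate from pyruvate and so refills the tricarboxylic acid cycle, and in brain it is known mainly from astrocytes. Its 3' probe set read 230.2, 245.1 and 231.8 on the P7 arrays and 351.0, 341.6 and 363.6 on the P21 arrays. All P21 arrays lay above all P7 arrays, and replicates of an age were close. The means were 235.7 ± 8.18 and 352.1 ± 11.04 (SD, n = 3 each), a change of 0.55 on the log2 scale (SE 0.10, adjusted p = 0.0012 in limma). One of its middle probe sets read 46.7, 88.2 and 89.7 at P7 and 98.6, 141.7 and 133.4 at P21, a change in log2 signal of 0.68 (SE 0.23, adjusted p = 0.0414 in limma). Here too the ages did not overlap, and P7 replicate 1 was the lowest array. The other middle probe set (log2 change 0.36, limma adjusted p = 0.129) and the 5' probe set (0.41, limma adjusted p = 0.118) did not pass and had overlapping arrays. Thus 2 of the 4 probe sets of this transcript were called. Of all tested probe sets 38.6% were called, so this count does not set the transcript apart.

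The transferrin receptor, written TransRec in the identifiers, carries iron-loaded transferrin into cells. The signals of its 3' probe set were 74.8, 91.1 and 153.5 at P7 and 158.6, 176.4 and 238.7 at P21. The ages did not overlap, but the highest P7 array came close to the lowest P21 array. The log2 change was 0.81 (SE 0.27, adjusted p = 0.0366 in limma). At the 5' part the signals were 24.3, 23.5 and 36.6 at P7 and 38.4, 53.3 and 82.3 at P21. The P7 arrays and P21 replicate 1 lay in the range of bacterial control probe sets whose RNA was not on the array (median 5.2, highest 49.1), so its difference, called at an adjusted p of 0.0368 in limma, is given no size. Its mean over the 8 arrays, 47.5, is below the minimum asked of other probe sets. The signals of the middle probe set, 18.3 to 30.8 at P7 and 27.3 to 47.9 at P21, lay wholly in the control range, and it did not pass (limma adjusted p = 0.207). At P14 the 3' probe set read 348.8 and 195.8, and the 5' probe set 66.7 and 55.0. The middle probe set read 72.1 and 53.2 at P14, above the control range and above every P21 array.

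GAPDH is an enzyme of glycolysis. Its middle probe set read 5111, 6029 and 6023 at P7 and 6091, 7625 and 8443 at P21, a change in log2 signal of 0.36 (SE 0.12, adjusted p = 0.042 in limma), with the lowest P21 array just above the highest P7 array. The log2 differences of its 3' and 5' probe sets were 0.28 and 0.34 (limma adjusted p = 0.124 and 0.0889), with overlapping arrays. Beta-actin, the common cytoskeletal actin, had 3' signals of 6457, 7706 and 7469 at P7 and of 5113, 7631 and 7943 at P21. The P21 arrays spanned the P7 arrays, with P21 replicate 1 the lowest of all, and the log2 change was -0.09 (SE 0.15, adjusted p = 0.69 in limma), with a sign that turned without that array (0.11). After quantile normalization it passed as lower at P21, at -0.26 (adjusted p = 0.0218 in limma). The probe sets for B1 and B2 repeats, short interspersed elements found in many transcripts, had log2 differences of 0.37, 0.24 and 0.07 (limma adjusted p = 0.134, 0.175 and 0.714) and were not called.

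The calls of the named transcripts differed in how far they rested on single arrays. The 3' probe set of pyruvate carboxylase stayed past the threshold of 0.05 without each array in turn. The 3' probe set of the transferrin receptor did not pass without P7 replicate 1, P7 replicate 2, P21 replicate 2 or P21 replicate 3, where its log2 change was 0.62, 0.74, 0.86 and 0.65 (limma adjusted p 0.111, 0.0994, 0.0724 and 0.126). Its 5' probe set was lost in those settings and without either P14 array (limma adjusted p 0.0523 to 0.137). The middle probe set of pyruvate carboxylase was lost without P7 replicate 1, P21 replicate 2, P21 replicate 3 or either P14 array (0.42 to 0.68, limma adjusted p 0.0521 to 0.126). That of GAPDH was lost without any array other than P21 replicate 1 (0.26 to 0.40, limma adjusted p 0.0615 to 0.132). Each array also carried a high signal of 1 kind of bacterial poly-A control RNA. With that kind as a block, a fit in which P21 is 1 array, none of these calls remained. The 3' and middle parts of pyruvate carboxylase were at 0.55 and 0.34 there (limma adjusted p 0.0922 and 0.638), the 3' part of the transferrin receptor was at 0.50 (0.544) and GAPDH at 0.06 (0.818), and the 5' part of the transferrin receptor had an adjusted p of 0.701.

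**Figure D1:**
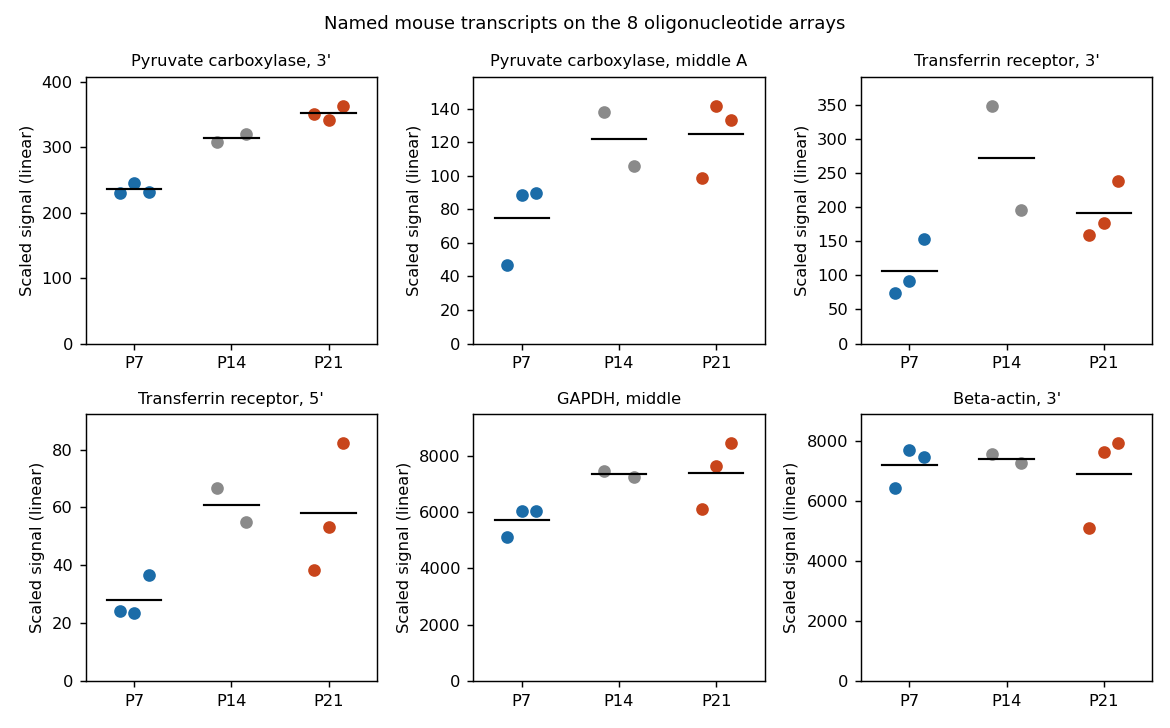
Scaled signal (linear axis from 0) of 6 probe sets with a transcript's name, 1 point per array, at P7 (n = 3), P14 (n = 2) and P21 (n = 3), with the mean of each age as a line. In all panels but that of beta-actin every P21 array lies above every P7 array, most clearly for the 3' part of pyruvate carboxylase (235.7 against 352.1). Those panels show only the called probe sets of these transcripts. Their other probe sets, not called and with overlapping arrays, are not shown. Of all tested probe sets, 49.5% had arrays of the ages that did not overlap.

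Across the tissue's transcripts as a whole, change between the ages was widespread. Of 22626 probe sets, 15296 had a mean signal of at least 50 over the 8 arrays and were tested. In limma 5907 were called, with an adjusted p under 0.05, which is 38.6% of those tested. Blocking on the kind of poly-A control, which leaves P21 resting on 1 array, gave 1938. The called probe sets that were higher at P21 numbered 2622 (17.1% of those tested) and had a median log2 change of 0.67. Those lower numbered 3285 (21.5%) and had a median of -0.68. The excess of lower over higher calls turned when each array was centred on its median instead of its trimmed mean, with 3074 higher and 2764 lower, so that the arrays do not settle which direction was the more common. The median log2 change over all tested probe sets was -0.018, and 0.043 with that centring.

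Large changes were few beside the number called. On the log2 scale a change of 1 is a doubling or halving of the signal plus a pseudocount (0.05 of the trimmed mean). For dim probe sets the signal itself must then change by more. A change of at least 1 was reached by 639 called rises (4.18% of tested probe sets) and 739 called falls (4.83%). At least 2 was reached by 94 rises and 115 falls, at least 3 by 16 and 20, and at least 4 by 2 and 3. Thus 24.4% of called rises and 22.5% of called falls reached 1. With each array centred on its median the numbers were 747 rises and 632 falls, so the excess of falls turned there too. With a pseudocount of 2.5 they were 727 rises and 849 falls, and with 50 they were 444 and 476. Over all tested probe sets the middle 50% of log2 changes lay between -0.35 and 0.29, and the outermost 1% on each side began at -1.79 and 1.71.

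**Figure D2:**
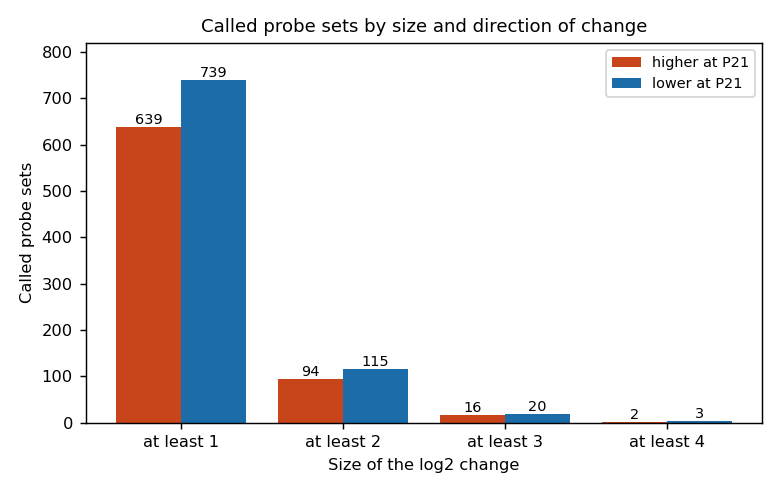
Number of probe sets called between P7 and P21 (limma adjusted p under 0.05) whose log2 change reached at least 1, 2, 3 or 4, higher or lower at P21. Rises fell from 639 to 2 and falls from 739 to 3 as the size asked for grew.

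**Figure D3:**
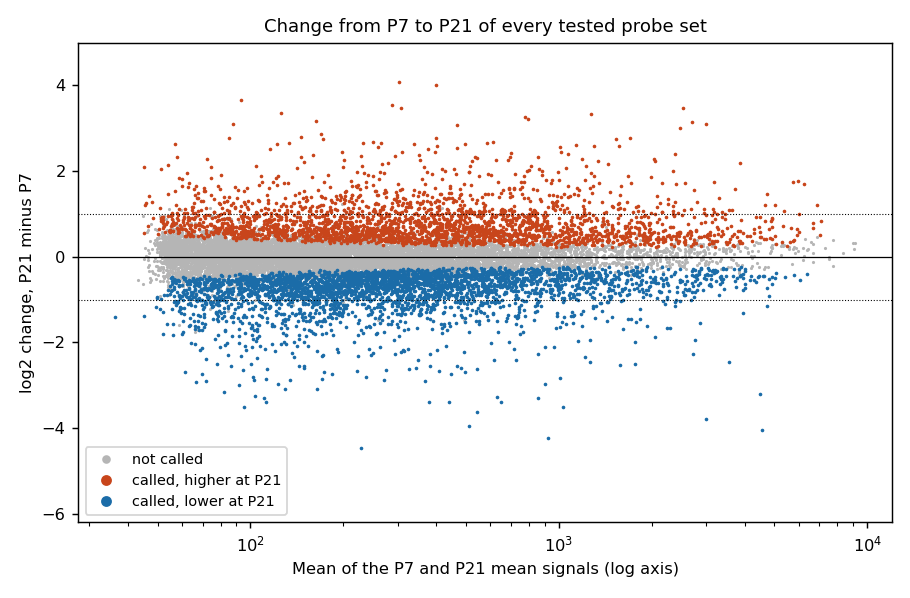
Change from P7 to P21 (log2 scale) of each of the 15296 tested probe sets against its mean signal (log axis), coloured by call; dotted lines mark a change of 1. Calls spread on both sides at every signal, and the band of uncalled probe sets is narrower at high signal.

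The intervals of these changes say more than the calls about what did not move. The half-width of a 95% interval had a median of 0.33 on the log2 scale. Of the 9389 probe sets not called, 3995 (42.5%) had an interval that lay within 0.5 in either direction, so a change beyond that size lay outside their interval. In 522 (5.6%) the interval reached 1, so that a doubling or halving on this scale was not excluded by it. Unlike the calls, the intervals were not adjusted for the number of probe sets tested, so some intervals of uncalled probe sets leave out 0. At the other end, 604 called probe sets had an interval wholly beyond 1, of which 293 were higher and 311 lower at P21. Calls and the raw arrays mostly went together: in 5769 of the called probe sets (97.7%) the arrays of the ages did not overlap, against 49.5% of all tested probe sets, and the test itself favours such sets. There were 138 calls with overlapping arrays, and 1800 probe sets without overlap that were not called.

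How wide the gap between the ages was can be read from the nearest arrays. In 324 of the 639 rises of at least 1 the lowest P21 array was at least 2 times the highest P7 array. In 370 of the 739 falls the lowest P7 array was at least 2 times the highest P21 array. Arrays overlapped in 9 of these rises and 3 of these falls. These probe sets were chosen by their called change on the same arrays, which favours such gaps. The share of all tested probe sets with a gap of at least 2 times was not computed.

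The largest rise was that of probe set 1420709_s_at. It read 34.9, 22.2 and 12.9 on the P7 arrays, 267.2 and 229.9 at P14, and 690.4, 513.4 and 539.8 at P21. The ages followed each other without overlap, and the P7 signals all lay in the range of controls that were not on the array. The log2 change from P7 to P21 was 4.08 (SE 0.22, adjusted p = 1.19e-06 in limma) with a 95% interval of 3.61 to 4.56. Against the top of that control range, 49.1, the P21 mean was at least 11.8-fold higher. Probe set 1448982_at was next, at 24.1, 38.2 and 46.0 at P7, 279.9 and 355.8 at P14, and 806.0, 850.7 and 629.0 at P21, with the same order of ages and no overlap. Its log2 change was 4.01 (SE 0.19, adjusted p = 7.34e-07 in limma) with a 95% interval of 3.59 to 4.43, and its P21 mean was at least 15.5-fold above the top of the control range. The fitted sizes depend on the pseudocount, 0.05 of the trimmed mean, and with a pseudocount of 50 they were 3.11 and 3.23, which turns their order.

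The third largest rise had the smallest P7 signals of the first 3, at 3.2, 2.7 and 2.9, and read 169.9, 187.5 and 191.9 at P21, a change in log2 signal of 3.66 (SE 0.15, adjusted p = 5.78e-07 in limma). Its P14 arrays, at 167.9 and 162.3, stood beside the P21 arrays, unlike those of the first 2. The P21 mean was at least 3.73-fold above the control range. The sixth, by contrast, was read well above that range at every age, at 199.3, 584.5 and 546.6 at P7 and 3728, 5446 and 4629 at P21, a change in log2 signal of 3.46 (SE 0.33, adjusted p = 2.89e-05 in limma). P7 replicate 1 was the lowest array by a wide margin, and no P21 array came near the P7 arrays.

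Over the 15 largest rises the log2 change ran from 3.08 to 4.08, with SE of 0.13 to 0.48 and limma adjusted p of 5.78e-07 to 0.000249. Their P7 means ran from 2.93 to 673.1 and their P21 means from 165.8 to 5333, and 8 of the 15 had a P7 mean within the range of absent controls. In 13 of the 15 both P14 arrays lay between the means of P7 and P21, a position that their choice by a large change favours.

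The largest fall, of probe set 1449340_at, went from 248.7, 210.8 and 895.7 at P7 to 5.1, 5.8 and 2.3 at P21. The P21 arrays were all inside the range of absent controls, while P7 replicate 3 stood far above the other P7 arrays, and the P14 arrays, at 556.2 and 85.5, were also far apart. The log2 change was -4.48 (SE 0.62, adjusted p = 0.000316 in limma) with a 95% interval of -5.87 to -3.09. Against the top of the control range the P7 mean was at least 9.2-fold higher, and without P7 replicate 3 at least 4.68-fold. With a pseudocount of 2.5 or 50 the change was -5.76 or -2.95, and the fall was not called (-4.42, limma adjusted p = 0.0649) when blocking on the kind of poly-A control. Probe set 1438009_at fell next, from 1180, 2266 and 1855 through 275.2 and 268.4 at P14 to 72.2, 109.3 and 62.1 at P21. Its ages were in order with no overlap, and its P21 arrays still read above the control range. The log2 change was -4.23 (SE 0.24, adjusted p = 1.59e-06 in limma) with a 95% interval of -4.75 to -3.71. It was the larger of both falls with a pseudocount of 50 (-3.76) and without P7 replicate 3 (-4.17 against -3.84).

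The third and the fifth largest falls shared a pattern, with a spread between P21 arrays that reached at most 4.11 times in the others of the 15. The third read 7094, 6245 and 11711 at P7 and 1704, 346.2 and 173.0 at P21. The fifth read 4812, 4879 and 6687 at P7 and 1189, 282.2 and 157.2 at P21. In both, P7 replicate 3 was the highest array at P7, and P21 replicate 1 was far above the other P21 arrays, by up to 9.85 and 7.56 times the lowest. Their P14 arrays, at 12576 and 7142 for the third and 6864 and 4091 for the fifth, lay at the P7 level. The log2 changes were -4.05 (SE 0.64, adjusted p = 0.00071 in limma) and -3.79 (SE 0.56, adjusted p = 0.000441 in limma). In the first, the third and the fifth fall P7 replicate 3 and P14 replicate 1 were the higher arrays of their ages, and these 3 had the largest SE of the 15. The identifiers do not say whether the 3 probe sets read related transcripts.

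Other falls were almost the same on every array of an age. The thirteenth read 1614, 1615 and 1473 at P7 and 148.9, 146.9 and 144.1 at P21, a change in log2 signal of -3.31 with the smallest SE among the 15 (0.09, limma adjusted p = 5.18e-08). The twelfth went from 773.4, 799.5 and 866.5 to 71.0, 57.1 and 72.1, a change in log2 signal of -3.39 (SE 0.13, adjusted p = 5.78e-07 in limma). Within an age the arrays of these probe sets differed by at most 1.26 times, while the means of the ages differed by 10.7 and 12.2 times.

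Over the 15 largest falls the log2 change ran from -4.48 to -3.28. The P7 means were 186 to 8350 and the P21 means 4.4 to 741.2, and 4 of the 15 had a P21 mean within the range of absent controls. Both P14 arrays lay between the means of P7 and P21 in 10, which the choice by a large change favours here too. Of all 5907 calls, 4662 to 5450 remained when 1 of the 8 arrays was left out. All 15 rises and all 15 falls remained called in each such setting, but they had been chosen as the largest calls on these same arrays. With the kind of poly-A control as a block 14 of each remained.

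**Figure D4:**
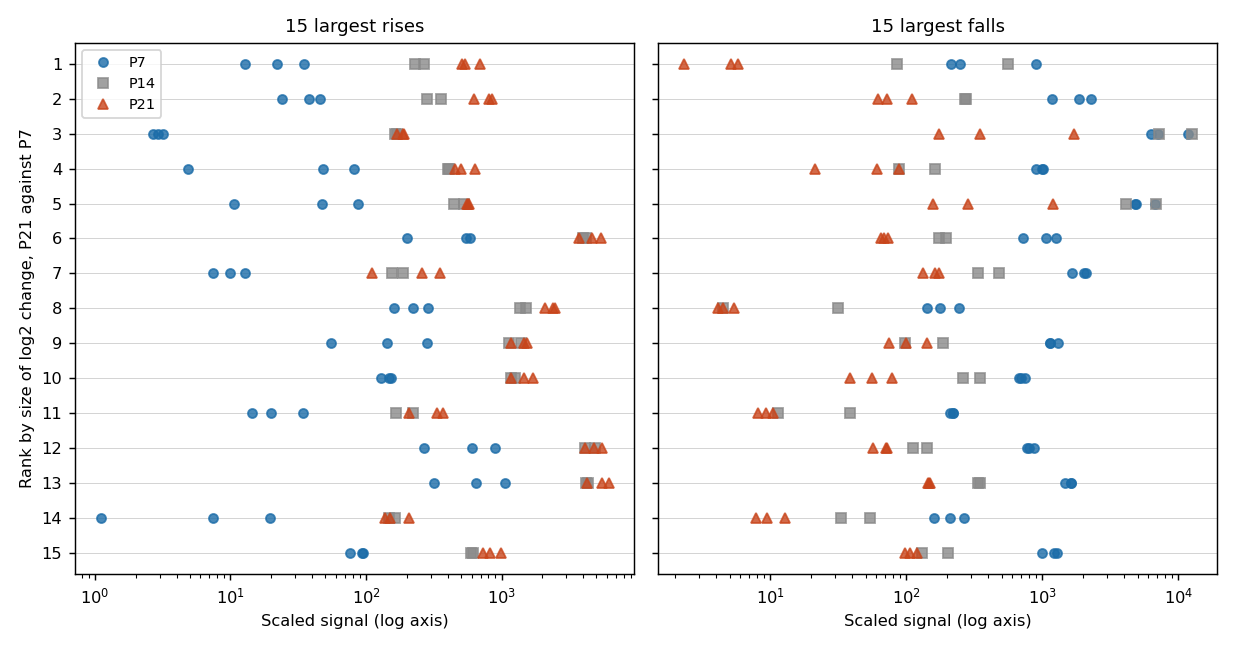
Scaled signal (log axis) on each array of the 15 probe sets with the largest rise (left) and the 15 with the largest fall (right) from P7 to P21, by rank; circles are P7, squares P14 and triangles P21. No P7 array overlaps a P21 array in any of the 30, by the rule that chose them, and the third and the fifth fall show P21 arrays spread over up to 9.85 times.

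Signals that moved into or out of the range of absent controls were more often lost than gained under the deposited scaling. In 159 probe sets all P7 arrays lay at or below 49.1 and all P21 arrays above it, and in 279 the reverse held. Of the first, 105 were bright enough to be tested and 94 were called, and of the second 145 were tested and 142 called. With the limit kept at 49.1, rescaling each array's signals to a common median gave 208 and 243, and quantile normalization gave 187 and 275. The range of absent controls was not measured again under these scalings. The counts of 159 and 279 include many small steps across the limit. Every P21 array exceeded 200 in only 6 of the 159 gained probe sets, and every P7 array did in 8 of the 279 lost ones. Both P14 arrays were already above the range in 81 of the 159 gained, and already within it in 177 of the 279 lost. A further 5247 probe sets stayed within the range on all 6 arrays and 13401 above it.

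For the 1378 called probe sets with a change of at least 1, the P14 arrays give a point between. The P14 mean lay between the P7 and P21 means in 515 of the 639 rises and 619 of the 739 falls. It was beyond the P21 mean in 120 rises and 113 falls, and on the far side of the P7 mean in 4 and 7. Choosing probe sets by a large change between P7 and P21 itself favours a P14 mean between them. The share over all tested probe sets was not computed. These positions rest on 2 arrays, and no test was made of them.

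Arrays of an age did not contribute evenly to the large changes. P7 replicate 1 was the lowest of the 3 P7 arrays in 337 of the 639 rises of at least 1 (52.7%), against 36.7% of all tested probe sets. It was lowest in 36.3% of the falls. At P21, replicate 1 was the lowest array in 44.6% of these rises and the highest in 42.9% of these falls, against 34.4% and 34.7% of all tested probe sets, and replicate 2 was the lowest in 49.4% of the falls against 32.5%. Of the P7 arrays, replicate 1 also had the highest ratio of 3' to 5' signal, a measure of RNA integrity, at 0.904 for GAPDH and 1.169 for beta-actin (the other P7 arrays 0.82 to 0.851 and 1.009 to 1.067), and its part in this pattern was not tested. Without replicate 1 of both ages, a setting chosen after seeing the data, 656 rises and 808 falls of at least 1 were called.

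**Figure D5:**
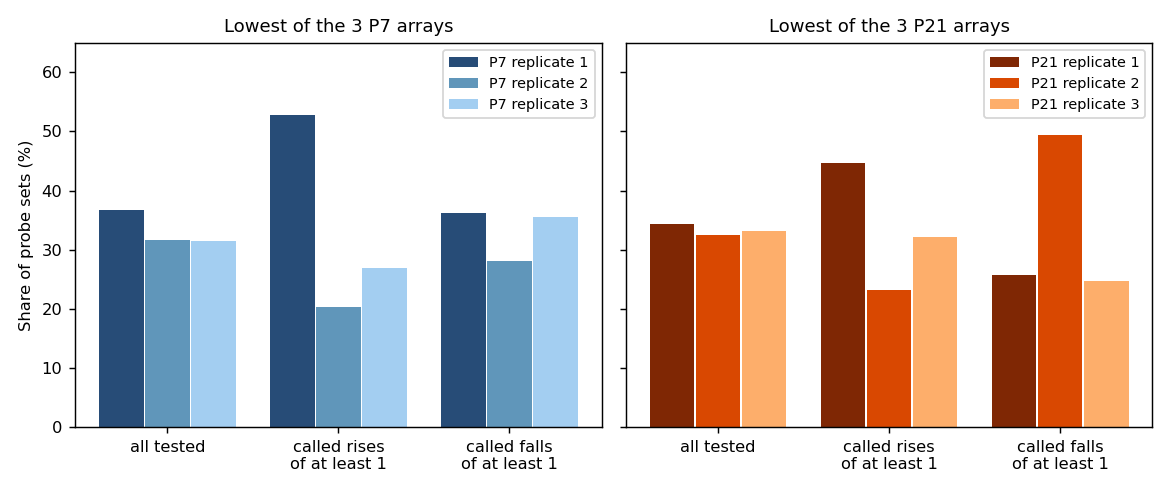
Share of probe sets (percent) in which each array was the lowest of the 3 arrays of its age, at P7 (left) and P21 (right), over all 15296 tested probe sets and over called rises and falls of at least 1 on the log2 scale. P7 replicate 1 is lowest in 52.7% of the rises, and P21 replicate 2 in 49.4% of the falls.

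The ending of a probe set's name tells how selective it is, and calls were found for every ending. Sets ending in _at alone read 1 transcript, those in _a_at several transcripts of a gene, those in _s_at transcripts of several genes, and those in _x_at hold probes that may also bind other transcripts. Among those tested, 37.1% of 10047, 41.6% of 3063, 39.8% of 1115 and 43.2% of 1071 were called, in that order. These shares are those under the deposited scaling, and differences between the kinds were not tested. The median signal also differed, at 190, 257, 248 and 349.

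The P7 and P21 arrays themselves were alike in scale. Median signals were 108.8 to 110.5 at P7 and 102.6 to 108.7 at P21, and lower at P14 (98.7 to 98.8). Log2 signals correlated across tested probe sets at r = 0.968 to 0.983 between P7 arrays, 0.966 to 0.973 between P21 arrays and 0.867 to 0.906 between the ages; probe sets are not independent replicates. The signal of the 18S ribosomal RNA control, 5' part, ran from 155.4 to 3530 at P7 and from 943.9 to 6137 at P21. Between P7 and P21 the arrays overlapped and it was not called (log2 change 1.78, adjusted p = 0.19 in limma). Its 3' and middle parts had log2 changes of 1.81 and 1.07 (limma adjusted p = 0.079 and 0.0753). They too had overlapping arrays and were not called, so all parts of this control were higher at P21 in the mean. What this means for the comparison was not tested. At the 5' part the P14 arrays read only 38.6 to 43.6, and what this means for P14 values was not tested. The number of arrays limits the precision.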

How the data were processed

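The authors deposited 1 linear intensity per probe set and array. Per the submitters' processing notes the array maker's software GCOS was used (version not given in the sources used here). The 2%-trimmed mean was 250.1 on every array, and bringing all to exactly this value changed no signal above 0 by more than 0.0029%. From these intensity values, log2(signal + a pseudocount of 0.05 of the trimmed mean) was fitted with limma 3.58.1 in R 4.3.3 (lmFit, eBayes with a trend) on all 8 oligonucleotide arrays, with the contrast P21 minus P7, two-sided, Benjamini-Hochberg adjusted over all tested probe sets, threshold 0.05. Fold changes on this scale understate those of dim probe sets. The 64 control probe sets and 7330 with a mean under 50 were left out; control probe sets with a mouse transcript's name were tested in a second fit that added them with no filter on their own signal in any setting, chosen after seeing the data. The fit was also run on simulated data with independent noise and few changed probe sets. These data are unlike that, so the simulation does not bear on the number of calls. Of 22690 identifiers 0 matched the gene table, so 34 gene lists were not run. Probe sets named are the 2 largest rises and falls among called ones with non-overlapping arrays; those described by rank were singled out after their values were seen. Members and lists were chosen with earlier results of these data known. One P21 label gives fewer replicates than the others; all 3 were used. The spotted arrays were not used here.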

Additional observations from a re-analysis of the deposited data

How the results depend on the processing

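Of 20 alternatives, 19 kept the count of called probe sets within 1.5 times of 5907. Without 1 array it ran from 4777 to 5682, and with the replicate block (the labels' replicate number) it was 5966. The labels state no pairing, so the numbers were not taken as pairs in the main fit. The deviations of same-numbered P7 and P21 arrays correlated at 0.28, -0.02 and 0.13, highest for replicate 1, and the cause was not tested. Blocking on the kind of poly-A control leaves P21 with 1 array, and then 1938 were called, 1035 of them lower. With a mean signal of at least 200 asked for, where fewer probe sets are tested, 2087 were called lower and 799 changed by at least 1. With the poly-A block the largest fall had an adjusted p of 0.0649; the other 3 probe sets named by identifier passed in every alternative that was run. The 3' part of pyruvate carboxylase had an adjusted p of 0.0922 with the same block, and passed in the other 19. The calls of the transferrin receptor were lost in 8 (3') and 9 (5') of 20, that of the middle part of pyruvate carboxylase in 9 and that of GAPDH in 11. Beta-actin ran from -0.20 to 0.11 without 1 array, was 0.11 without P21 replicate 1 and 0.04 without replicate 1 of both ages, and passed at -0.26 (adjusted p = 0.0218) after quantile normalization, and was -0.51 (adjusted p = 0.0743) with the poly-A block. The cause was not tested. The 34 gene lists, and the rule for genes named through a table, were not run under any alternative, since no table pairs probe sets with genes. For dim probe sets the signal over background limits the size of a change.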
